A study of Mus musculus with 6 samples.

Results

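The 9 genes Mbnl1, Mbnl2, Qk, Ptbp1, Ptbp2, Rbfox2, Celf1, Celf2 and Nova1, which encode RNA-binding proteins that regulate splicing in glial and neural cells, were examined by RNA-seq in cultured spinal cord oligodendrocyte precursor cells (OPCs). They were chosen by name, as regulators of glial and neural exons, and all 9 were found among the 30948 genes that could be quantified. Mouse libraries of 3 Gde3 KO and 3 WT samples were compared, all on a C57BL/6 background. GDE3, the product of Gdpd2, is a membrane enzyme that releases GPI-anchored proteins from the cell surface, and the series asks what its loss does to OPCs. Both genotypes were treated alike: spinal cords were taken at postnatal day 0.5, A2B5+ cells were pulled down with magnetic beads, and the cells were cultured under proliferative conditions for 16 h, with forskolin at 5 µM and with PDGF and CNTF at 10 ng/mL each. The labels name the KO only by its gene and do not say how many pups went into a library.

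Splicing regulators of this kind bind short motifs in a pre-mRNA and, depending on where they sit, promote or block the use of a nearby exon. MBNL proteins drive exon choices of differentiated cells, often against CELF proteins. Quaking (Qk) is the RNA-binding protein of myelinating glia whose loss causes the dysmyelination of the quaking mouse. PTBP1 keeps neuronal exons out of the mRNAs of non-neuronal cells and precursors, and its paralogue PTBP2 takes over in developing neurons. RBFOX2 is the broadly expressed member of its family, and NOVA1 was described as a neuronal regulator of synaptic exons. Several of these genes also splice their own or each other's transcripts.

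The libraries were deposited as 1 transcript assembly each, in which every assembled transcript has its exons and its FPKM, which is the number of fragments per unit of transcript length and of sequencing depth. Assemblies held 32098 to 41319 transcripts in the KO libraries and 32693 to 56807 in the WT libraries, and relative depth ran from 0.759 (WT replicate 1) to 1 (WT replicate 3). WT replicate 1 stood apart in that 36.8% of transcripts were shorter than 300 nt, compared with 2.16% to 6.61% elsewhere. The targeted gene went with the labels at 2 exons: exons 9 and 10 of Gdpd2 were assembled over 0% of their bases in all 3 KO libraries, against 100% of exon 9 in all 3 WT libraries and 21.9%, 100% and 100% of exon 10. Averaged over all its exonic bases, from transcripts of 300 nt or more, Gdpd2 was at 0.67, 1.497 and 1.78 FPKM in KO and 0, 2.79 and 2.85 FPKM in WT. WT replicate 1 was lowest there, so by this level the genotypes overlapped, while the exon percentages count transcripts of any length. Summed OPC markers (8 genes) were at 1090 to 1342 FPKM in KO and 930.5 to 1471 FPKM in WT. Microglial markers summed to 92.5 to 173 FPKM in KO against 51.7 to 72.5 FPKM in WT, with 7 of 7 tested genes higher in KO and none called, and Aif1 and P2ry12 at 0 in some libraries. Astrocyte markers spanned 169 to 620 FPKM in KO and 111 to 451 FPKM in WT, neuronal markers 138 to 165 FPKM in KO and 150 to 313 FPKM in WT (highest in WT replicate 1). Markers of myelinating oligodendrocytes summed to 224 to 355 FPKM in KO and 291 to 298 FPKM in WT, and vascular and meningeal markers to 34.8 to 59.7 FPKM in KO and 40.5 to 46.8 FPKM in WT. No gene of these lists was called, and Mog and Slc17a6 were at 0 in some libraries. Bulk levels cannot tell fewer cells of a type from less RNA per cell, and the part of these markers in the results below was not tested.

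The exons that the members are known for are printed here because the splicing results turn on them. Sequences are from GENCODE M21 on GRCm38 (mm10), 5′ to 3′ on the gene's strand, and every exon shown is coding over its whole length in that annotation. The 54-nt exons of Mbnl1 (chr3:60614683-60614736, plus strand) and Mbnl2 (chr14:120395712-120395765, plus strand) encode part of the nuclear localisation signal and are repressed by MBNL proteins themselves. Capitals mark the bases that differ between the paralogues, and 46 of 54 bases (85.2%) are the same.
Mbnl1 54-nt exon: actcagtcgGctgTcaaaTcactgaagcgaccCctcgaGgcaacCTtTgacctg
Mbnl2 54-nt exon: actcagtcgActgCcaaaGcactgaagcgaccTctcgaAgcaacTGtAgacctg
The 36-nt exons that follow in the same genes (Mbnl1 chr3:60621423-60621458, Mbnl2 chr14:120403336-120403371, both plus strand) share 31 of 36 bases (86.1%), again with capitals at the differences.
Mbnl1 36-nt exon: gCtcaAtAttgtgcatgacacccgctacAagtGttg
Mbnl2 36-nt exon: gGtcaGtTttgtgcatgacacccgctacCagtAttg
The 34-nt exons of Ptbp1 (chr10:79862014-79862047, plus strand) and Ptbp2 (chr3:119724612-119724645, minus strand) are the exons whose skipping, promoted by PTBP1, puts the mRNA out of frame and sends it to nonsense-mediated decay. They share 26 of 34 bases (76.5%), with capitals at the differences.
Ptbp1 34-nt exon: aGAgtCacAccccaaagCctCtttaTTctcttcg
Ptbp2 34-nt exon: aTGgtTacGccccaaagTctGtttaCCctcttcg
Further exons are shown in lower case only, as they have no paralogue beside them. The 78-nt exon of Ptbp1 (chr10:79860117-79860194, plus strand) lies in the linker between its RNA-binding domains, the 40-nt and 43-nt exons of Rbfox2 (chr15:77094451-77094490 and chr15:77091812-77091854, minus strand) are alternatives associated with brain and muscle, and the 72-nt exon of Nova1 (chr12:46713498-46713569, minus strand) is regulated by NOVA1 itself.
Ptbp1 78-nt exon: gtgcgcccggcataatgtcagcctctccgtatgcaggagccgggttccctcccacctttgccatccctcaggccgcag
Rbfox2 40-nt exon: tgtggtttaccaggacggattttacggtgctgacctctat
Rbfox2 43-nt exon: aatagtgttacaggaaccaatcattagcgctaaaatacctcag
Nova1 72-nt exon: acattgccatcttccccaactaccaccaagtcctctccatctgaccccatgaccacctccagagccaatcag

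All 9 regulators were expressed, at levels that spanned a wide range. The level of a gene was first taken as FPKM averaged over its coding bases, which were assembled over 82.4% or more in every library. Qk was highest, with 222, 202 and 191 FPKM in KO and 194, 218 and 180 FPKM in WT. Ptbp1 followed with 106, 93.0 and 85.4 FPKM in KO and 104.3, 103.4 and 75.2 FPKM in WT. Celf1 came next at 53.1, 67.5 and 65.4 FPKM in KO and 74.5, 74.5 and 63.3 FPKM in WT. These 3 genes did not overlap each other in any library, so their order held over all 6. Ptbp2 lay at 41.3, 41.7 and 36.5 FPKM in KO and 44.4, 37.5 and 49.1 FPKM in WT. Nova1 lay at 35.8, 26.8 and 39.8 FPKM in KO and 34.4, 44.2 and 45.2 FPKM in WT. Ptbp2 and Nova1 overlapped, and both stood clear of the 4 lower genes. Among those, Mbnl2 had a median of 20.7 FPKM over the 6 libraries, Celf2 18.7, Mbnl1 14.5 and Rbfox2 14.5 FPKM, and each overlapped the next. The neuronal regulator Nova1 was above Mbnl1, Mbnl2, Celf2 and Rbfox2 in all 6 libraries. Ptbp1 exceeded its paralogue Ptbp2 by 2.56, 2.23 and 2.34 times in KO and 2.35, 2.75 and 1.53 times in WT (exact permutation p = 0.9, two-sided, smallest possible p 0.1).

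**Figure D1:**
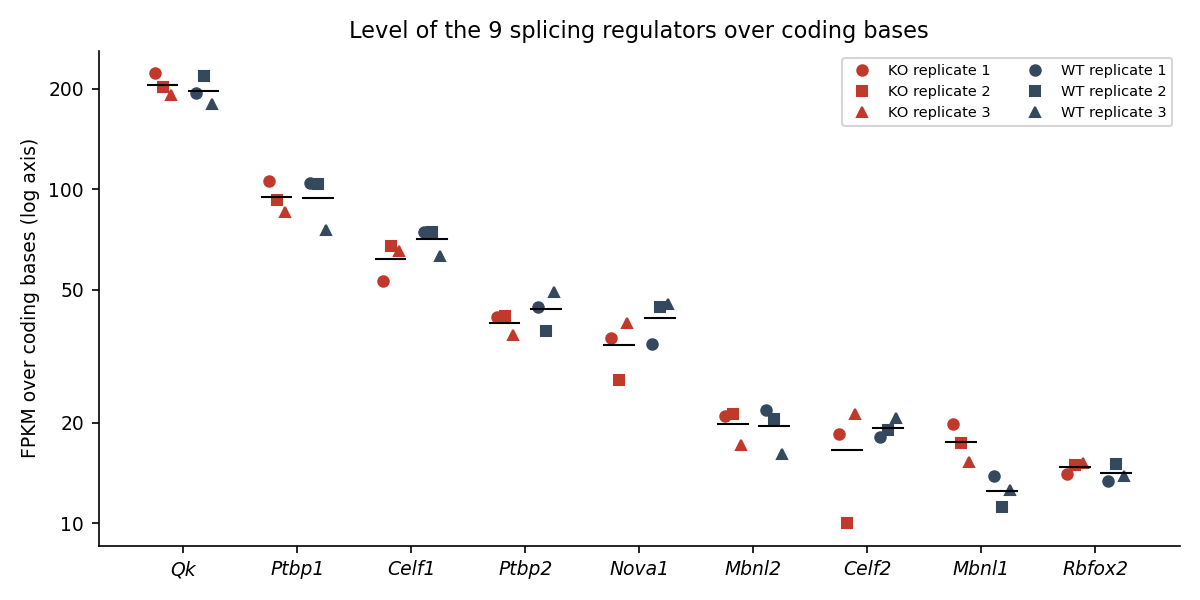
Coding-base FPKM of the 9 regulators on a log axis, KO (red) left of WT (dark), one marker shape per replicate number, with the group mean as a bar. Qk sits near 200 FPKM and Mbnl1, Mbnl2, Celf2 and Rbfox2 between 10 and 22 FPKM, and in Mbnl1 the KO points (15.3 to 19.8) lie above the WT points (11.2 to 13.8).

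No member was called between KO and WT. Averaged over all exonic bases that no other gene shares, 8 of the 9 were lower and Celf1 was higher in KO, with a median log2 difference of -0.16, against -0.0055 and 51.4% lower over all 12040 genes tested. With limma on log2(FPKM + 1) and Benjamini-Hochberg adjustment over all 12040 genes, 0 members passed 0.05, where 0.00831% of all genes did. The gene called was Mettl23, which is not among the regulators and was named after its value was seen. At an unadjusted p under 0.05, 1 member (Mbnl1, lower in KO) was counted, where 1.62% of all genes were (0.706% in the lower direction). In simulated data of this size 49% of genes changed by 1 on the log2 scale were recovered, so a smaller change in a member could not be detected reliably.

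Mbnl1 had the smallest p of the members, and its direction depended on which bases were averaged. Mbnl1 (chromosome 3, 60472830 to 60629750, plus strand) encodes a muscleblind protein. Over all its exonic bases it had 5.43, 6.91 and 6.09 FPKM in KO, against 9.37, 10.7 and 12.2 FPKM in WT. All 3 KO libraries lay below all 3 WT libraries, which 3.03% of all tested genes also did. In either direction 2 of the 9 members (Mbnl1 and Celf2) did not overlap, where 5.07% of all genes did not. The difference was -0.72 ± 0.14 on the log2 scale (SE, limma adjusted p = 0.9999, with an unadjusted value of 0.00211). Over coding bases alone Mbnl1 had 19.8, 17.4 and 15.3 FPKM in KO, against 13.8, 11.2 and 12.6 FPKM in WT, or 17.5 ± 2.24 in KO and 12.5 ± 1.29 in WT (mean ± SD, n = 3 each). Here every KO library lay above every WT library, which 2.66% of the 11804 genes tested over coding bases also did, and it was the 1 member without overlap (5.37% of all genes in either direction). That difference was 0.45 ± 0.14 on the log2 scale (SE, limma adjusted p = 1.00, with an unadjusted value of 0.0183), where 1.91% of genes had an unadjusted p under 0.05 and 0.00847% passed adjustment. Coding bases were chosen as a second gene value after the first had been seen. This second value sums the FPKM of whole assembled transcripts at coding bases. FPKM is per unit of transcript length, so it is not independent of how much 3′ UTR those transcripts hold. The part of this in the coding-base difference of Mbnl1 was not tested.

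A 3′ UTR was taken here as the exonic bases past the last coding base of any annotated transcript of the gene. The bases that separated these values were in the 3′ UTR of Mbnl1, 3392 bases long. They were assembled over 1.33%, 1.92% and 3.69% in KO, against 75.1%, 99.2% and 99.9% in WT. Spliced KO transcripts reached 24, 44 and 104 nt into the last exon, annotated at 3371 nt, and WT transcripts 819, 3343 and 3366 nt. In WT replicate 1, most of the assembled 3′ UTR thus lay outside any assembled exon that starts where the last exon does. The 3′ UTR averaged 0.23, 0.34 and 0.57 FPKM in KO, against 7.64, 11.3 and 12.8 FPKM in WT. Of all exonic bases of Mbnl1, 30.4%, 40.8% and 42.1% lay under a transcript in KO, against 80.8%, 96.8% and 97.3% in WT (exact permutation p = 0.1, two-sided, the smallest that 3 against 3 allows). The extent was lower in every KO library for 1.89% of all genes and did not overlap in either direction for 5.93%, and Mbnl1 was the only such member. Of 8437 genes with a 3′ UTR of 500 bases or more, 10 (0.119%) were under 10% assembled there in every KO library and at 50% or more in every WT library, and 4 (0.0474%) showed the reverse. Mbnl1 is among the 10, and the 10% and 50% limits were not planned. These shares therefore do not measure how unusual Mbnl1 is. The cause was not tested. Of the marker lists, the microglial sum was the one without overlap between KO (92.5 to 173 FPKM) and WT (51.7 to 72.5 FPKM), and its part in the Mbnl1 values was not tested.

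The same all-or-none assembly of a 3′ UTR was seen in 3 other members, but it did not follow genotype. Mbnl2 (chromosome 14, 120275669 to 120431697, plus strand), the muscleblind paralogue prominent in brain, had 2.73%, 2.84% and 5.23% of its 3′ UTR assembled in KO, against 89.1%, 2.84% and 4.14% in WT. Its only library with a full 3′ UTR was WT replicate 1. Qk had 99.2%, 99.1% and 0% in KO, against 95.7%, 99.1% and 100% in WT, so KO replicate 3 alone had none of it assembled. Qk has several final exons, and this 3′ UTR holds 7017 of its 13768 exonic bases. Untranslated bases of final exons further upstream were not counted in it. Ptbp1 had 68.2%, 0% and 0% in KO, against 68.2%, 68.2% and 0% in WT, which splits both genotypes. Over all genes with a long 3′ UTR, 1979 (23.5%) were under 10% in at least 1 library and at 50% or more in another, where 4 of the 9 members were. Celf1 had 48.4% in KO replicate 1 and 2.38% to 7.84% in the other 5 libraries.

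**Figure D2:**
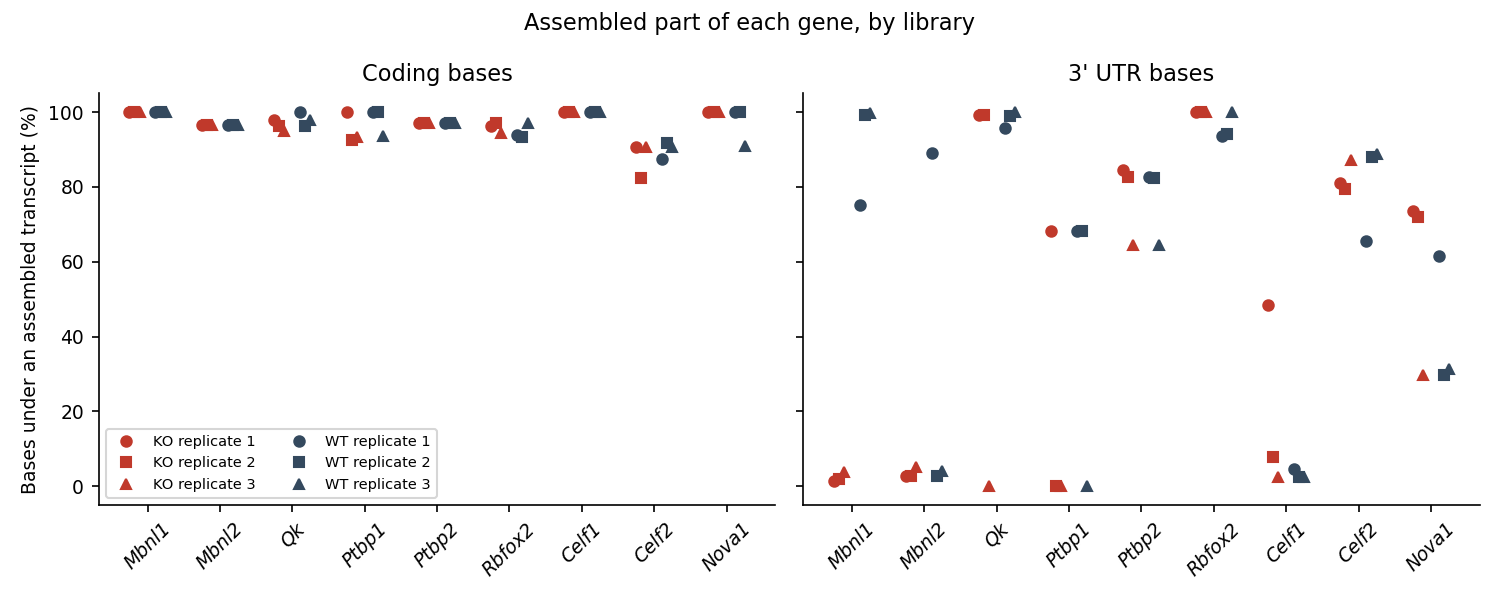
Percent of coding bases (left panel) and of 3′ UTR bases (right panel) under an assembled transcript, for each regulator and library, KO left of WT within each gene. Coding bases are at 82.4% or more everywhere, while the 3′ UTR of Mbnl1 is below 4% in KO and above 75% in WT, and those of Mbnl2, Qk, Ptbp1 and Celf1 split along other libraries.

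The genotypes overlapped in level for the other members under both measures, except for Celf2 over all exonic bases. Mbnl2 had 8.32, 8.55 and 7.23 FPKM over all exonic bases in KO, against 13.5, 8.25 and 6.72 FPKM in WT (KO minus WT on the log2 scale -0.17 ± 0.24, SE, limma adjusted p = 0.9999). Over its coding bases KO and WT were at 19.8 ± 2.24 and 19.5 ± 2.98 FPKM (mean ± SD, n = 3 each). The high value was that of WT replicate 1, which also had the assembled 3′ UTR. The ratio of Mbnl1 to Mbnl2 over coding bases was 0.946, 0.820 and 0.889 in KO, against 0.631, 0.548 and 0.777 in WT, without overlap (exact permutation p = 0.1, two-sided, the smallest possible). As Mbnl2 was similar in both genotypes over coding bases, this ratio restates the Mbnl1 coding-base difference. How many other gene pairs would not overlap was not counted. The ratio of Celf1 to Celf2 was 2.87, 6.75 and 3.08 in KO and 4.13, 3.93 and 3.06 in WT, with overlap (exact permutation p = 0.9, two-sided).

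Qk (chromosome 17, 10202601 to 10319854, minus strand) had 53.5, 44.0 and 34.8 FPKM over all exonic bases in KO, against 53.0, 51.0 and 55.5 FPKM in WT (KO minus WT on the log2 scale -0.28 ± 0.17, SE, limma adjusted p = 0.9999). KO replicate 1 lay among the WT values. KO replicate 3, with 0% assembled past the last coding base, was lowest. It had 30.2% of all 13768 exonic bases assembled, more than its 1087 coding and 507 leader (5′ untranslated) bases hold. Over coding bases the log2 difference was 0.06 ± 0.14 (SE, limma adjusted p = 1.00), with 205 ± 16.0 FPKM in KO and 197 ± 19.5 FPKM in WT (mean ± SD, n = 3 each).

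Ptbp1 (chromosome 10, 79854427 to 79864771, plus strand) had 92.8, 54.2 and 49.7 FPKM over all exonic bases in KO, against 91.5, 90.7 and 43.8 FPKM in WT. High and low values occurred in both genotypes, and the low libraries were the 3 without an assembled 3′ UTR. Its log2 difference was -0.18 ± 0.37 (SE, limma adjusted p = 0.9999). Ptbp2 (chromosome 3, 119718742 to 119784466, minus strand) had 22.1, 21.5 and 24.6 FPKM in KO, against 23.6, 22.8 and 30.2 FPKM in WT (KO minus WT on the log2 scale -0.15 ± 0.14, SE, limma adjusted p = 0.9999). The KO range overlapped the WT range.

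Rbfox2 (chromosome 15, 77078990 to 77307004, minus strand) had 12.2, 16.1 and 11.9 FPKM in KO, against 13.4, 13.4 and 15.1 FPKM in WT, and its log2 difference of -0.07 ± 0.14 (SE, limma adjusted p = 0.9999) was within the spread. Its 3′ UTR was assembled over 93.7% or more in all 6 libraries. Nova1 (chromosome 12, 46694517 to 46818929, minus strand) had 16.7, 21.1 and 18.4 FPKM in KO, against 20.01, 20.5 and 21.5 FPKM in WT (KO minus WT on the log2 scale -0.14 ± 0.12, SE, limma adjusted p = 0.9999). KO replicate 2 fell within the WT range.

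Celf1 (chromosome 2, 90940382 to 91019497, plus strand), whose protein acts against MBNL1 on many exons, had 32.1, 16.6 and 15.7 FPKM over all exonic bases in KO, against 18.2, 17.0 and 14.9 FPKM in WT. The higher KO mean came from KO replicate 1, the library with an assembled 3′ UTR. Its log2 difference was 0.28 ± 0.28 (SE, limma adjusted p = 0.9999), and without KO replicate 1 it was -0.04. Over coding bases it was -0.19 ± 0.14 (SE, limma adjusted p = 1.00). Celf2 (chromosome 2, 6539694 to 7509563, minus strand), the paralogue common in brain, had 8.95, 9.60 and 9.94 FPKM in KO, against 10.1, 10.6 and 11.5 FPKM in WT. All KO libraries lay below all WT libraries by a small margin (KO minus WT on the log2 scale -0.16 ± 0.10, SE, limma adjusted p = 0.9999), and 3.03% of all genes did so. Over coding bases the groups overlapped, at 18.5, 10.0 and 21.3 FPKM in KO and 18.1, 19.0 and 20.7 FPKM in WT. Over coding bases the median of the 9 log2 differences was 0.02, with 5 higher and 4 lower in KO.

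**Figure D3:**
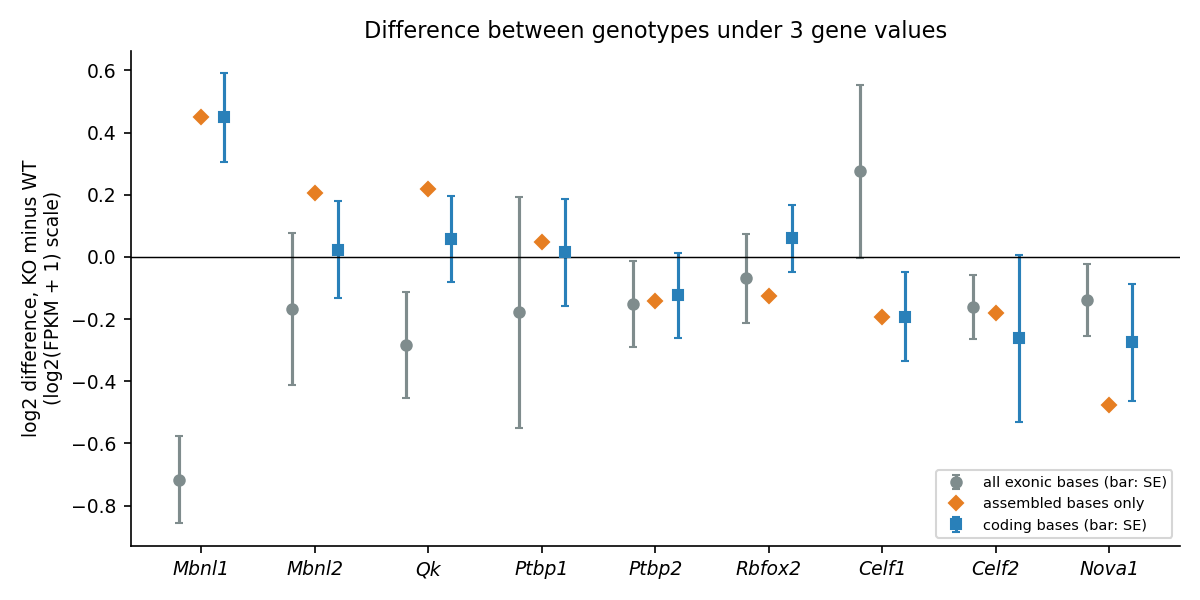
Log2 difference of each regulator, KO minus WT, from FPKM averaged over all exonic bases (grey, SE), over assembled bases only (orange) and over coding bases (blue, SE). Mbnl1 changes sign, from -0.72 to 0.45, and Mbnl2, Qk, Ptbp1, Rbfox2 and Celf1 also lie on opposite sides of 0 under all exonic and coding bases.

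The regulators' own exons were in 3 states: included in full, skipped in full, or mixed. An exon's inclusion was the share of FPKM in transcripts that contain it, out of those plus the transcripts that skip it. A share of 0% or 100% means only that no assembled transcript had the other form. Over all exons read, the lowest share above 0% was 11.6% and the highest below 100% was 88.4%. Both were in the target gene Pkm in KO replicate 3. A rarer form could therefore be present without being assembled. Among 44 annotated cassette exons in the 9 genes, 30 had a share in all 6 libraries. Of these, 16 were included in full in every library, 7 were skipped in full and 7 varied. With 22 varying exons of target genes, 29 were tested by exact permutation. None separated the genotypes without overlap (0%), the smallest p was 0.2 and every p adjusted over the 29 exons was 1.

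The MBNL exons showed paralogues in different states. The 54-nt exon of Mbnl1 was included at 69.2%, 63.5% and 60.7% in KO, against 76.9%, 71.9% and 63.8% in WT, where the transcripts that include it had 8.17 to 12.1 FPKM. KO was lower in each of the 3 replicate-number pairs, by 6.41 points on average, but the groups overlapped (exact permutation p = 0.2, two-sided; by pairs p = 0.25, the smallest 3 pairs allow). The difference was -3.39 points without WT replicate 1, -9.97 points without WT replicate 3 and -8.79 points without KO replicate 1, in each case still lower in KO. The 54-nt exon of Mbnl2 was at 69.4%, 60.0% and 48.9% in KO, against 39.1%, 57.6% and 49.2% in WT (exact permutation p = 0.3, two-sided). Its mean was higher in KO, opposite to that of Mbnl1, and the groups overlapped in both genes. The 36-nt exons differed between the paralogues in all 6 libraries: that of Mbnl1 was included at 100%, 86.9% and 100% in KO and 100%, 100% and 86.3% in WT, whereas that of Mbnl2 was at 0% in all 6 libraries. A 95-nt exon of Mbnl2 was at 100%, 85.4% and 81.9% in KO and 100%, 85.3% and 74.0% in WT.

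The PTB exons of 34 nt were included in full in both genotypes. The 34-nt exons of Ptbp1 and Ptbp2 were at 100% in all 6 libraries, and no assembled transcript skipped either, a form that is known to be degraded. The 78-nt exon of Ptbp1 was at 25.1%, 37.9% and 30.2% in KO, against 33.3%, 36.6% and 34.4% in WT (exact permutation p = 0.5, two-sided). KO replicate 2 was the highest and KO replicate 1 the lowest of the 6. In all 6 libraries transcripts without that exon had the larger share.

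Rbfox2 was assembled with its 40-nt exon at 100% and its 43-nt exon at 0% in all 6 libraries. The 72-nt exon of Nova1 was included at 100% in all 6. In the CELF genes, a 152-nt exon of Celf1 was at 35.0%, 20.3% and 23.3% in KO and 25.9%, 52.6% and 28.8% in WT (exact permutation p = 0.5, two-sided). A 144-nt exon of Celf2 was at 71.8%, 0% and 100% in KO and 100%, 33.0% and 100% in WT (exact permutation p = 0.7, two-sided). Both groups ran over most of the scale for Celf2, and replicate 2 was the lowest library in each genotype.

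**Figure D4:**
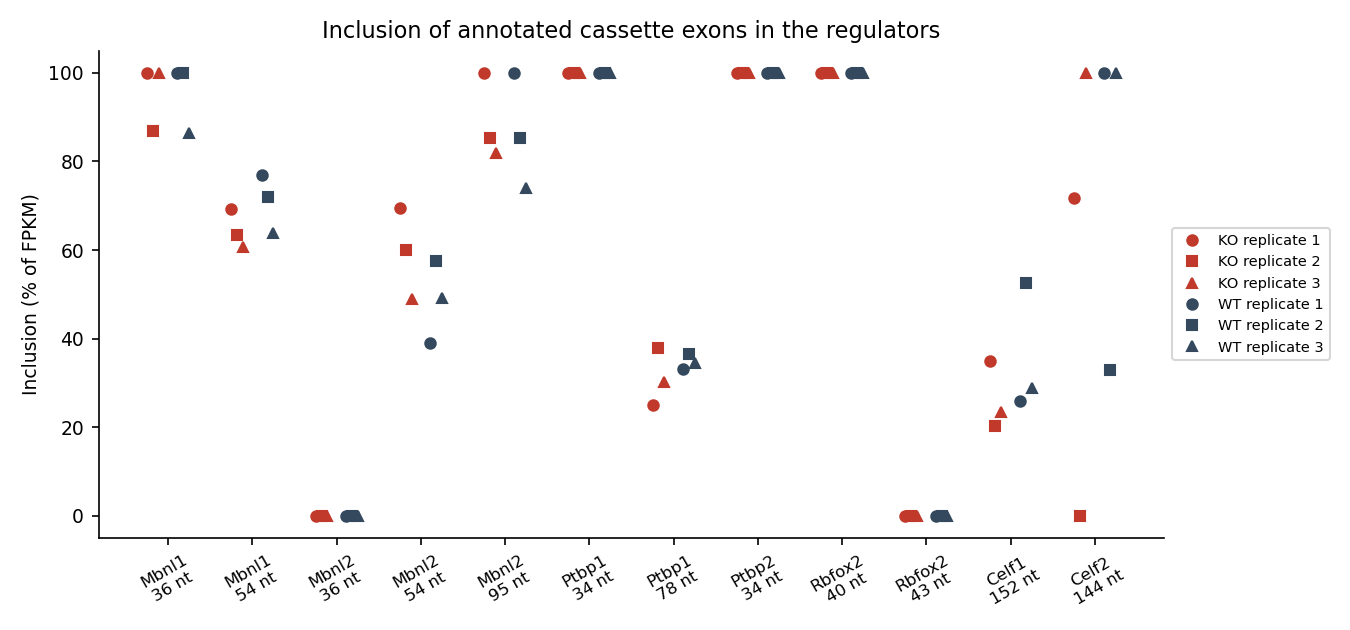
Inclusion (percent of FPKM) of 12 cassette exons of the regulators, named by gene and exon length, with KO left of WT and a marker shape per replicate number. The PTB 34-nt exons and the Rbfox2 40-nt exon are at 100%, the Mbnl2 36-nt and Rbfox2 43-nt exons at 0%, and in the varying exons KO and WT points overlap.

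Qk makes its main proteins by joining the last shared exon to different final exons. QKI-5 is nuclear, and QKI-6 and QKI-7 are found in the cytoplasm as well or mainly there. The transcripts Qk-204, Qk-206 and Qk-201, with open reading frames of 341, 319 and 325 codons, end in the QKI-5, QKI-6 and QKI-7 types of tail. This set was chosen after the values were seen. The Qk-204 join took 10.9%, 42.9% and 57.0% of spliced FPKM in KO, against 16.4%, 44.6% and 13.4% in WT (exact permutation p = 0.7, two-sided). Transcripts with the Qk-204 join summed to 27.0, 95.9 and 116 FPKM in KO and 34.3, 107 and 26.2 FPKM in WT. The 3′ UTR of Qk averaged 26.8, 27.2 and 0 FPKM in KO and 30.1, 33.2 and 26.2 FPKM in WT. Whether the shares depend on where assembled transcripts ended was not tested. The Qk-206 join took 26.8%, 57.1% and 42.97% in KO, against 52.2%, 55.4% and 46.0% in WT (exact permutation p = 0.5, two-sided). The Qk-201 join took 62.4%, 0% and 0% in KO, against 31.4%, 0% and 40.6% in WT (exact permutation p = 1, two-sided). Libraries with a Qk-201 join had the lowest Qk-204 shares, in both genotypes, and for both joins the spread within a genotype exceeded the difference between genotypes. The shares of a library are parts of the same sum, so this inverse pattern is in part fixed by the calculation. The FPKM of the Qk-204 join was also lowest in those libraries.

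**Figure D5:**
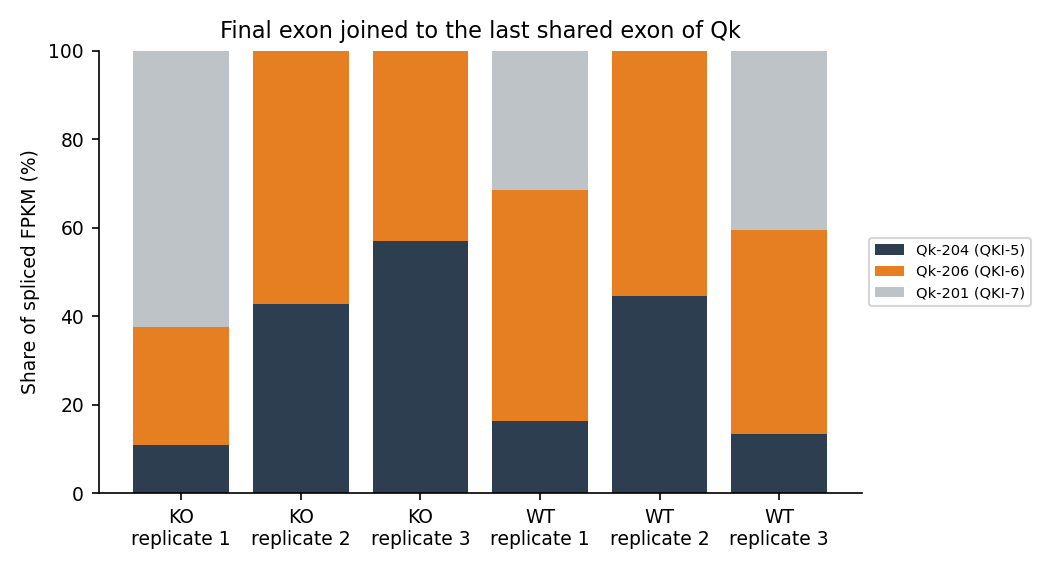
Stacked shares of FPKM that join the last shared exon of Qk to the final exon of Qk-204 (QKI-5 type), Qk-206 (QKI-6 type) or Qk-201 (QKI-7 type), for each KO and then each WT library. Qk-206 was present in all 6 libraries, at 26.8% to 57.1%, and Qk-201 in 3 of them.

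Targets of these proteins were listed as genes, so an exon read in them need not be one that the protein regulates. All annotated cassette exons of the listed genes were read, and 85 exons in 16 of the genes had a share in all 6 libraries. Of these, 24 were included in full, 39 were skipped in full and 22 varied. PTB targets held exons of each kind. The 18-nt N1 exon of Src, which makes the neuronal kinase, was at 0% in all 3 KO libraries, against 13.03%, 0% and 0% in WT. The neuronal 54-nt and 36-nt exons of Clta (clathrin light chain A) were at 0% in all 6. These 3 exons of neuronal mRNAs are shown because they were at or near full skipping.
Src 18-nt exon (chr2:157458843-157458860, plus strand): gaggaaggtggatgtcag
Clta 54-nt exon (chr4:44030215-44030268, plus strand): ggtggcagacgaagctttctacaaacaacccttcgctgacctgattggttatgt
Clta 36-nt exon (chr4:44031400-44031435, plus strand): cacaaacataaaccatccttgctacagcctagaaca
For Pkm, whose exons are mutually exclusive, the M2 exon that PTB favours was at 100%, 100% and 88.4% in KO and 85.5%, 100% and 100% in WT, and the M1 exon at 0%, 0% and 11.6% in KO and 14.5%, 0% and 0% in WT. The genotypes overlapped in each. Other PTB targets were mostly included. A 66-nt exon of Dlg4, the gene of the postsynaptic scaffold PSD-95, was at 100%, 100% and 100% in KO and 100%, 83.5% and 80.4% in WT (exact permutation p = 0.4, two-sided). A 110-nt exon of Dlg4 was at 74.3%, 100% and 71.3% in KO and 76.9%, 49.5% and 80.4% in WT (exact permutation p = 0.6, two-sided). The 3 exons read in Gabbr1, a GABA-B receptor subunit, were at 100% in all 6 libraries.

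Among QKI targets, the 45-nt exon of Mag, which gives the short form of myelin-associated glycoprotein, was at 24.3%, 30.1% and 19.3% in KO and 28.5%, 20.6% and 22.5% in WT (exact permutation p = 0.8, two-sided). In Mbp, the 78-nt exon was at 26.0%, 0% and 29.7% in KO and 15.9%, 25.5% and 0% in WT. The 33-nt exon of Mbp was at 38.8%, 43.7% and 66.1% in KO and 46.9%, 59.6% and 73.4% in WT, lower in KO in all 3 pairs with overlapping groups (exact permutation p = 0.4, two-sided). The 123-nt exon of Mbp had its mean on the other side, at 70.6%, 36.6% and 100% in KO and 42.4%, 40.5% and 52.6% in WT (exact permutation p = 0.4, two-sided). In Nfasc, which encodes the adhesion protein neurofascin, a 205-nt exon was at 0%, 0% and 61.8% in KO and 21.4%, 46.7% and 53.9% in WT (exact permutation p = 0.4, two-sided). Its 116-nt and 51-nt exons also varied, with overlapping groups. Among NOVA targets, the 33-nt and 24-nt exons of Agrn, whose inclusion makes neural agrin, were at 0% in all 6 libraries. The 108-nt exon of Gphn, which encodes the inhibitory synapse scaffold gephyrin, was at 26.6%, 28.9% and 46.3% in KO and 0%, 43.3% and 46.6% in WT. Among MBNL targets, the 36-nt exon of Insr, the insulin receptor, was skipped in full in all 6. Bin1 had 3 exons that varied and Mapt 1, all overlapping. Of RBFOX targets, none of the 5 exons of Enah varied and 2 of the 10 exons of Fgfr2 did. A 78-nt exon of Fgfr2 was at 71.8%, 67.1% and 71.3% in KO against 53.3%, 67.3% and 63.3% in WT (exact permutation p = 0.2, two-sided). A 267-nt exon of Fgfr2 was at 57.5%, 52.3% and 47.2% in KO and 53.3%, 50.5% and 48.1% in WT (exact permutation p = 0.7, two-sided). A 69-nt exon of Camk2g was at 51.6%, 55.5% and 56.6% in KO and 0%, 50.3% and 56.5% in WT, higher in KO in all 3 pairs. WT replicate 1 was the lowest library for the 78-nt exon of Fgfr2 and for these exons of Camk2g and Gphn.

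Other splicing regulators gave the same count of calls as the 9. Of the 9 other genes of the same families, 8 were tested, with 2 higher and 6 lower in KO and a median log2 difference of -0.14. The 32 hnRNP and related genes split 17 higher and 15 lower (median 0.0044), the 21 SR proteins and their kinases 11 higher and 10 lower (median 0.0075), and 15 tested of 20 tissue-restricted regulators 7 higher and 8 lower (median -0.0023). None of these tested genes passed limma's adjusted threshold, and none had an unadjusted p under 0.05, where 1.62% of all genes did. Over coding bases none passed adjustment either, and 2 had an unadjusted p under 0.05, where 1.91% of all genes did. They were Hnrnpu, a nuclear matrix protein, with a log2 difference of 0.86 over coding bases and 0.03 over all exonic bases, and the neuronal Elavl4. Of the exonic bases of Hnrnpu, 99.9%, 34.1% and 34.7% were assembled in KO and 92.4%, 88.2% and 88.2% in WT. The part of this in its coding-base value was not tested.

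Within the families, the broadly expressed Ptbp3 averaged 7.43 ± 0.71 FPKM in KO and 8.42 ± 1.11 FPKM in WT (mean ± SD, n = 3 each). Nova2, the NOVA paralogue of the forebrain, averaged 9.14 ± 1.04 FPKM in KO and 8.84 ± 0.71 FPKM in WT. Both were below their relatives Ptbp1 and Nova1 over all exonic bases in every library, and KO and WT overlapped in both. The remaining CELF genes are mainly neural. Celf4 averaged 6.65 ± 0.95 FPKM in KO and 7.38 ± 1.69 FPKM in WT. Celf3 averaged 4.25 ± 1.46 FPKM in KO and 4.75 ± 0.47 FPKM in WT, and Celf5 4.56 ± 1.29 FPKM in KO and 4.65 ± 0.55 FPKM in WT. Celf6 was lower still, at 1.33 ± 0.16 FPKM in KO and 1.16 ± 0.32 FPKM in WT, and the genotypes overlapped in all 4.

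The neuronal genes Rbfox1 and Rbfox3 were low. Rbfox1 was at 1.59, 2.09 and 1.45 FPKM in KO, against 4.65, 1.85 and 1.59 FPKM in WT. Rbfox3 was at 1.33, 1.17 and 0.93 FPKM in KO, against 3.71, 0.97 and 0.84 FPKM in WT. Both were highest in WT replicate 1, as the neuronal markers were, and the part of neuronal RNA in these values was not tested. Mbnl3 was listed at 0 in all libraries but WT replicate 2, where it had 0.08 FPKM, so the muscleblind transcripts that were assembled came almost wholly from Mbnl1 and Mbnl2. The epithelial regulators Esrp1 and Esrp2 were listed at 0 in all 6. The neuronal Srrm4 was below the minimum for testing, at 0.42, 0.77 and 0.36 FPKM in KO and 0.53, 0.54 and 0.20 FPKM in WT.

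The genes with the smallest p in each list did not pass either. Hnrnpc, a nuclear protein that packages pre-mRNA, averaged 82.4 ± 5.00 FPKM in KO and 99.9 ± 10.3 FPKM in WT (mean ± SD, n = 3 each). Every KO library of Hnrnpc lay below every WT library, which 3.03% of all tested genes also did. Its log2 difference was -0.27 ± 0.12 (SE, limma adjusted p = 0.9999), and over coding bases it was -0.10. Raver2, a cofactor that binds PTB, averaged 3.65 ± 0.58 FPKM in KO and 2.38 ± 0.96 FPKM in WT. Tardbp, which encodes TDP-43, averaged 38.6 ± 9.005 FPKM in KO and 48.1 ± 4.58 FPKM in WT, and in both genes the groups overlapped.

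Of the SR group, Srsf6 averaged 47.9 ± 15.5 FPKM in KO and 31.4 ± 7.56 FPKM in WT (mean ± SD, n = 3 each). Srsf10 averaged 18.5 ± 0.83 FPKM in KO and 21.7 ± 4.30 FPKM in WT. The groups overlapped in both. Srpk2, a kinase of SR proteins, averaged 20.9 ± 0.76 FPKM in KO and 22.8 ± 0.84 FPKM in WT without overlap, where 5.07% of all tested genes did not overlap. Its log2 difference was -0.12 ± 0.09 (SE, limma adjusted p = 0.9999), with the opposite sign over coding bases (0.08). Of the tissue-restricted group, Rbm4 was at 1.21, 1.13 and 7.08 FPKM in KO and 5.12, 11.04 and 4.50 FPKM in WT. The low KO libraries of Rbm4 had 18.5% of its bases assembled. Its close copy Rbm4b was at 9.27, 4.41 and 3.51 FPKM in KO and 12.8, 10.1 and 2.93 FPKM in WT. Whether reads were shared between Rbm4 and Rbm4b was not tested. The neuronal Elavl4 averaged 6.88 ± 0.89 FPKM in KO and 8.42 ± 1.15 FPKM in WT. Every KO library of Elavl4 lay below every WT library, which 3.03% of all tested genes also did. Its log2 difference was -0.26 over all exonic bases and -0.59 over coding bases (limma adjusted p = 0.9999 and 1.00). Elavl2, another neuronal ELAV gene, averaged 5.79 ± 0.32 FPKM in KO and 7.23 ± 1.54 FPKM in WT. In Elavl2 the groups overlapped, and both ELAV genes were highest in WT replicate 1.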

How the data were processed

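RNA-seq of A2B5-selected spinal cord OPCs was taken as deposited, as 1 transcript assembly for each of 3 KO and 3 WT libraries. The submitters' processing notes name the mm10 build, the aligner TopHat2 2.1.1, the assembler Cufflinks 2.2.1, Cuffdiff 2.2.1 and FastQC. FPKM is the value the authors deposited for each assembled transcript, another number (not a count) held in the attribute column, and read counts were not used here. No source used here gives the strandedness. Transcripts carry no gene names and were matched by position to GENCODE M21, which shares 98.6% to 99.2% of their introns.

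FPKM of transcripts of 300 nt or more was summed at each exonic base that no other gene shares and averaged over these bases (genes with 200 or more such bases). Parts that were not assembled count as 0. Genes averaging at least 1 FPKM were tested on log2(FPKM + 1), a scale that understates changes of low genes, with limma 3.58.1 in R 4.3.3 (trend, two-sided, adjusted over all genes). Coding-base values were added after the first results. Inclusion was read where included and skipping transcripts summed to 1 FPKM or more, and exons whose shares ranged over 1 point or more were called varying. Inclusion and Qk joins rest on the assembler's FPKM, not on junction reads, so no counting interval could be given. The limma step was tested on simulated data (200 of 12040 genes changed): it recovered 49% at a log2 change of 1 and 74% at 2, with 4 false calls.

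Groups and replicate numbers are from the titles. Same-numbered libraries deviated together (r = 0.370, 0.199 and 0.294 over genes, against -0.278 to 0.0233 for other pairs), so the numbers were taken as pairs and a fit with them as a block was run. Deviations were from group means, so a positive r for 1 pair lowers r for the others by construction. The low r of other pairs is therefore not separate support for pairing. Nothing in the labels says that replicates are separate animals, so p-values measure only the spread between these samples, which may be technical. The members and lists were chosen with earlier results of these data known. Named genes were all members and their family, the 3 smallest p in each other list, and target genes with a share in all 6 libraries. Mettl23, Srrm4, Esrp1, Esrp2, Hnrnpu and Rbm4b were named besides, after their values were seen. Of 26 target symbols, 1 matched no gene.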

Additional observations from a re-analysis of the deposited data

How the results depend on the processing

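None of the 9 regulators, and none of the other listed regulators, was called under any alternative run. Over all genes, where 1 was called, 0 were called with a pseudocount of 0.1 or 5, a minimum of 5 FPKM, the sum over transcripts or the replicate block, 2 over assembled bases only, 27 without both replicate 1 libraries, and 1 to 17 without 1 library (17 without KO replicate 1). The replicate block, which in this balanced design leaves each difference as it is, called no member and gave Mbnl1 an adjusted p of 0.809. The direction of several members depended on the gene value. Over assembled bases only, the log2 difference became 0.45 for Mbnl1, 0.21 for Mbnl2, 0.22 for Qk, 0.049 for Ptbp1 and -0.19 for Celf1. Over coding bases it became 0.45 for Mbnl1, 0.024 for Mbnl2, 0.058 for Qk, 0.0155 for Ptbp1, 0.059 for Rbfox2 and -0.19 for Celf1. With the sum over transcripts it became 0.058 for Ptbp1, 0.19 for Rbfox2 and -0.13 for Celf1, and without both replicate 1 libraries 0.0698 for Mbnl2. Leaving out 1 library moved Mbnl2 over -0.36 to 0.0938, Rbfox2 over -0.20 to 0.0045, and Celf1 over -0.0409 to 0.45. With their sign kept, Ptbp1 ran from -0.52 (without WT replicate 3) to -0.0017 (without WT replicate 1), Qk from -0.43 (without KO replicate 1) to -0.13 (without KO replicate 3), Ptbp2 from -0.22 (without WT replicate 2) to -0.029 (without WT replicate 3), Nova1 from -0.22 (without KO replicate 2) to -0.062 (without KO replicate 1), Celf2 from -0.20 to -0.12 and Mbnl1 from -0.80 to -0.63. Over coding bases the ranges were -0.10 to 0.12 for Mbnl2, -0.0059 to 0.13 for Qk, -0.14 to 0.10 for Ptbp1 and -0.46 to 0.0453 for Celf2, and with their sign kept 0.36 to 0.54 for Mbnl1, -0.23 to -0.037 for Ptbp2, 0.026 to 0.10 for Rbfox2, -0.27 to -0.086 for Celf1 and -0.40 to -0.12 for Nova1. The difference in assembled extent ran from -1.59 to 1.48 points for Ptbp2 and from -5.29 to 3.55 points for Celf2, which was -2.05 points with no length minimum, while Mbnl1 stayed between -59.3 and -50.2 points. Exons without overlap between genotypes numbered 0, but 1 with no length minimum and 1 to 4 without 1 library, and by the replicate block 3 exons had all pairs in 1 direction. Leaving out 1 library moved the inclusion difference over -4.35 to 4.56 points for the Mbnl1 36-nt exon, -3.56 to 9.45 for the Mbnl2 95-nt exon, -42.7 to 8.22 for the Celf2 144-nt exon, -9.97 to -3.39 for the Mbnl1 54-nt exon, 5.85 to 16.1 for the Mbnl2 54-nt exon, -7.11 to -0.69 for the Ptbp1 78-nt exon, -14.5 to -1.15 for the Celf1 152-nt exon, and over -24.0 to 7.18 for the Qk-201 join, 2.08 to 25.2 for Qk-204 and -16.3 to -1.17 for Qk-206. The cause of these changes was not tested. With 3 libraries a genotype, 3 pairs and no read counts, a small difference in level or inclusion could not be detected.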
